A study of Mus musculus with 6 samples.

Results

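The genes described here are 10 genes of follicular helper T cells, namely Bcl6, Pdcd1, Il21, Sh2d1a, Icos, Tox2, Btla, Cd200, Pou2af1 and Ascl2. They were taken by name, as known genes of that program, from a table of 23366 genes, with earlier results of these data known. Of the 10 genes, 9 had counts and passed the filter on low counts, as did 10897 of all genes. Ascl2 had no count in any library.

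The study measured RNA in CD4+ effector T cells that had been transferred into Rag-deficient mice and recovered from the mesenteric lymph nodes after 6 weeks. Mdr1+ cells had low signal of rhodamine 123, a dye that the efflux pump Mdr1 expels, and Mdr1- cells had high signal; each fraction has 3 libraries, and all share the strain background FVB/N. Both names describe dye efflux in a sort, not a deletion of the Mdr1 genes. Rag deficiency stops the hosts from making lymphocytes, so the lymph nodes had no host B cells to form germinal centres. The labels do not say whether replicates came from separate mice, and the p-values below therefore reflect the spread among the 6 libraries, which may be technical.

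Follicular helper T cells are the CD4+ cells that help B cells in germinal centres. Their program is set by the repressor Bcl6, sustained by signals through the costimulatory receptor Icos and the adaptor protein SAP (gene Sh2d1a), restrained through receptors such as PD-1 (gene Pdcd1) and Btla, and delivered in part by the cytokine interleukin 21. Several of the genes are shared with other CD4+ effector cells: Th17 cells also make Il21, and activated T cells of most kinds carry Icos and Pdcd1. Pou2af1, Btla, Cd200 and Bcl6 are also expressed by B cells.

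Library totals in genes were 2220691 to 20771456 counts, and the shallowest, Mdr1+ replicate 3, stood apart from the other 5 along the leading principal component, which carried 59.2% of the variance of log2 CPM (counts scaled to library size). A count of 3 corresponded to between 0.140 and 1.41 CPM. Abcb1a, which encodes Mdr1, was at 177, 132 and 178.3 CPM in the Mdr1+ libraries, against 72.9, 42.0 and 73.4 CPM in the Mdr1- libraries, with no overlap. Abcb1b, the other mouse gene for Mdr1, was at 139.2, 41.6 and 100.9 CPM in the Mdr1+ libraries, against 75.9, 25.1 and 66.2 CPM in the Mdr1- libraries; it was higher in Mdr1+ in each pair, but the fractions overlapped and it passed with the block only (edgeR adjusted p = 0.00457, against 0.624 without it). The 9 T cell markers summed to 5191.2 to 6105 CPM in Mdr1+ and 5281.7 to 6184.6 CPM in Mdr1- libraries, and 0 of them passed the test in either fit below. All CPM values are scaled by TMM (trimmed mean of M values). Values of replicates are given in the order 1, 2 and 3.

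Promoter letters are shown for 4 genes, Btla, Cd200, Pou2af1 and Bcl6. The first 3 had no overlap between the fractions, as did Tox2, which is not shown, and Bcl6 is the repressor that defines the program. Each sequence is the stretch from 220 to 31 bases before a RefSeq transcript start (GRCm38.p6), 5′ to 3′ on the gene's strand. Capitals mark a match to one of the motifs searched.
Btla, chr16:45224117-45224306, plus strand: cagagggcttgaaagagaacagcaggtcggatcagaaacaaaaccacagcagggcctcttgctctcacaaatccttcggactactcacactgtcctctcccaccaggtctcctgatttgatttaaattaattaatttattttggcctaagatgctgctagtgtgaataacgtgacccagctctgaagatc
Cd200, chr16:45409084-45409273, minus strand: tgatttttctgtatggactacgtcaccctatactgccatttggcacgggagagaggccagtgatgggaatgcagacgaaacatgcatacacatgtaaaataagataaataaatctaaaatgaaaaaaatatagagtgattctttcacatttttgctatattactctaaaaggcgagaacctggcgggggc
Pou2af1, chr9:51213470-51213659, plus strand: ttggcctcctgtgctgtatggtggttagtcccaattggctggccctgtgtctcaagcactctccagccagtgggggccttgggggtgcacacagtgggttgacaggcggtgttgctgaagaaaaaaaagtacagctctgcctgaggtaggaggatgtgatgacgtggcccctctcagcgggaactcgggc
Bcl6, chr16:23988883-23989072, minus strand: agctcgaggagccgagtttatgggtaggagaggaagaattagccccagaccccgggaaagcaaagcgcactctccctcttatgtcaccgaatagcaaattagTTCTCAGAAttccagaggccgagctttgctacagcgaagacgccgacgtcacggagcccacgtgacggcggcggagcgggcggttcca

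The same stretch was searched on both strands for 3 motifs in all 32851 promoters of the sequence table. These were the octamer ATGCAAAT, which POU factors bind together with the Pou2af1 protein, the core TTCNNNGAA that STAT factors bind and that Bcl6 sites resemble, and the AP-1 core TGANTCA. They were present in 1.35%, 5.29% and 5.33% of all promoters. Among 13 promoter stretches of 8 members, TTCNNNGAA was found in 2, both of Bcl6 and 1 of them shown above, and the octamer and the AP-1 core in 0. A match here is a match of letters only.

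Il21, Pou2af1, Cd200, Tox2 and Btla had log2 fold changes (Mdr1+ over Mdr1-) between -1.58 and -1.04, Pdcd1 of -0.59, and Bcl6, Icos and Sh2d1a between -0.22 and -0.15. All of the 9 tested genes had a value below 0, as did 45.8% of all tested genes, and their median was -1.04 against 0.04 over all tested genes. In 8 of 9 the Mdr1+ library was the lower in each of the 3 pairs of the same replicate number, which held for 24.6% of all tested genes. As the members were chosen with earlier results of these data known, these comparisons with all genes are descriptions only. Because RNA was measured in bulk, fewer cells that express a gene and less of its RNA per cell cannot be told apart.

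Whether a gene passed depended on the treatment of the replicate number. In edgeR's quasi-likelihood test with group as the only term, 0 of 9 members passed an adjusted p of 0.05. Of all tested genes 2.22% did (1.95% lower and 0.275% higher in Mdr1+). An unadjusted p under 0.05 was found for 4 of 9 members. The share of all tested genes with such an unadjusted p was not computed, here or for the lists below. These unadjusted counts therefore have no baseline to be read against and are descriptions only. Libraries of the same number deviated together from their group means, and with the number as a block 6 of 9 fell, namely Pdcd1, Il21, Tox2, Btla, Cd200 and Pou2af1. With the block 6.57% of all tested genes were called lower, and 12.4% in either direction. DESeq2 without a block called 3 members lower, Btla, Cd200 and Pou2af1, where it called 3.08% of the genes it gave an adjusted p lower. Without Mdr1+ replicate 3, 0 members passed with group as the only term (1.57% of all tested genes). The block fit called 2 members, Il21 and Btla, without replicate 1 (10.2% of all tested genes) and without replicate 2 (6.08%), and 7, the 6 above and Bcl6, without replicate 3 (22.2%). In 4 of 9 members, Tox2, Btla, Cd200 and Pou2af1, the fractions did not overlap, and 19.7% of all tested genes had no overlap in either direction.

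**Figure D1:**
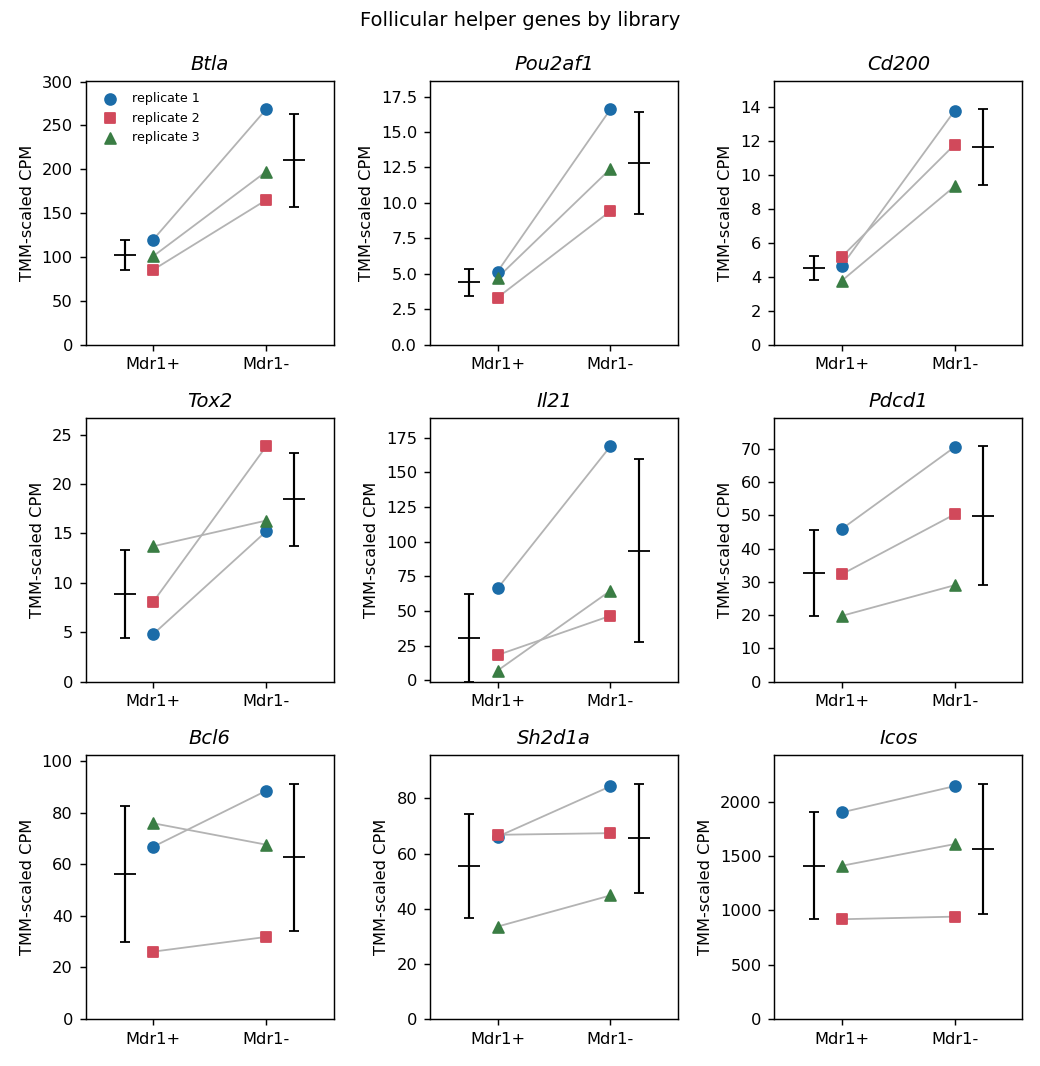
TMM-scaled CPM (y axis, linear) of the 9 tested genes in the Mdr1+ and Mdr1- libraries (x axis); each symbol is a library, grey lines connect the pair with the same number, and black bars give the group mean with its SD (n = 3). Btla, Pou2af1, Cd200 and Tox2 have no overlap between fractions, while for Bcl6 and Icos replicate 2 is low in both.

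Among the receptors, Btla differed with the least spread. Btla encodes an inhibitory receptor that binds HVEM and is carried by T and B cells. It was at 119.8, 85.4 and 100.9 CPM in the Mdr1+ libraries, against 268.4, 164.9 and 197.3 CPM in the Mdr1- libraries. All 3 Mdr1+ libraries lay below all Mdr1- libraries, a pattern that 11.0% of all tested genes showed, and the library ratios within numbers were 0.446, 0.518 and 0.511. Its log2 fold change was -1.04 ± 0.22 (SE), with an adjusted p of 0.0502 in edgeR's test with group as the only term and of 0.000333 with the block (-1.03 ± 0.09).

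Btla was called in more of the alternative fits (8 of 16) than any other member. With the block it was called without replicate 1, without replicate 2 and without replicate 3 (edgeR adjusted p = 3.08e-06, 8.72e-07 and 0.000396). With group as the only term it was called without Mdr1+ replicate 1 (adjusted p = 0.0442) and without Mdr1- replicate 2 (adjusted p = 0.0285), and not without any other single library.

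Cd200 encodes a surface ligand that quiets myeloid cells through its receptor, and it lies beside Btla. By the RefSeq annotation of GRCm38.p6 both lie on chromosome 16, on opposite strands, with 0 protein-coding genes between them. Cd200 was low, at 4.65, 5.19 and 3.77 CPM in the Mdr1+ libraries, against 13.8, 11.8 and 9.34 CPM in the Mdr1- libraries. The fractions did not overlap, although the value in Mdr1+ replicate 3 rests on 8 counts. Cd200 had a log2 fold change of -1.32 ± 0.34 with group as the only term (edgeR adjusted p = 0.102), and with the block Cd200 fell by 1.35 ± 0.31 (edgeR adjusted p = 0.0225). With the block, the call was lost without replicate 1 and without replicate 2 (edgeR adjusted p = 0.227 and 0.161).

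The next protein-coding genes on the Btla side did not share the direction. Atg3, an autophagy gene, had a log2 fold change of 0.23 ± 0.17 and Slc35a5, a sugar transporter gene, of 0.38 ± 0.31, and neither passed in either edgeR fit (adjusted p of 0.301 and 0.341 with the block). The next genes on the Cd200 side were not among the tested genes.

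Pdcd1, which encodes the inhibitory receptor PD-1, differed by less and varied more between numbers. It was at 45.9, 32.3 and 19.8 CPM in the Mdr1+ libraries, against 70.5, 50.3 and 29.0 CPM in the Mdr1- libraries. The fractions overlapped, but the ratios within numbers lay close together at 0.650, 0.642 and 0.682. With the block Pdcd1 fell by 0.61 ± 0.14 on the log2 scale (edgeR adjusted p = 0.0222), against an adjusted p of 0.604 without it, and the call was lost when replicate 1 or replicate 2 was also left out (adjusted p = 0.130 and 0.183).

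Icos encodes the costimulatory receptor that follicular helper cells need, and it was the most abundant member. It was at 1902.3, 917.9 and 1410.5 CPM in the Mdr1+ libraries, against 2144.2, 942.0 and 1610.2 CPM in the Mdr1- libraries. The fractions overlapped over nearly their whole range, with replicate 2 the lowest in both. Icos had a log2 fold change of -0.15 ± 0.34 and of -0.13 ± 0.08 with the block, where its 95% interval ran from -0.31 to 0.04, and neither fit called it (edgeR adjusted p = 0.910 and 0.296). With group as the only term its value was 0.08 without Mdr1+ replicate 2 and 0.12 without Mdr1- replicate 1.

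Il21, the gene of the cytokine that follicular helper and Th17 cells make, had among the largest differences and the widest spread. It was at 66.3, 18.3 and 7.07 CPM in the Mdr1+ libraries, against 168.9, 46.6 and 64.7 CPM in the Mdr1- libraries. Replicate 1 was the highest in both fractions, and Mdr1+ replicate 1 lay above the Mdr1- libraries of replicates 2 and 3. The ratios within numbers were 0.393, 0.392 and 0.109, and the last of these rests on 15 counts in Mdr1+ replicate 3.

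Il21 had a log2 fold change of -1.57 ± 0.70 with group as the only term (edgeR adjusted p = 0.425) and -1.66 ± 0.25 with the block (edgeR adjusted p = 0.00424). With the block Il21 was called when any number was left out, with values of -2.08, -1.90 and -1.37 without replicates 1, 2 and 3. With group as the only term its value without a single library ranged from -2.76 (without Mdr1+ replicate 1) to -0.84 (without Mdr1- replicate 1).

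Sh2d1a, the gene of the adaptor that links SLAM-family receptors to the kinase Fyn and lets T cells stay in contact with B cells, did not pass in either fit. It was at 66.1, 66.8 and 33.5 CPM in the Mdr1+ libraries, against 84.4, 67.4 and 44.8 CPM in the Mdr1- libraries. Replicate 3 was the lowest in both fractions, and in replicate 2 the values were nearly equal, with a ratio of 0.992. Sh2d1a had a log2 fold change of -0.22 ± 0.31 and of -0.24 ± 0.13 with the block (edgeR adjusted p = 0.842 and 0.286). The group-only value was 0.01 without Mdr1+ replicate 3.

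Among the transcription factors, Bcl6 itself did not pass. It was at 66.8, 26.1 and 75.9 CPM in the Mdr1+ libraries, against 88.5, 31.8 and 67.6 CPM in the Mdr1- libraries. Replicate 2 was low in both fractions, and Bcl6 was the 1 member with a higher value in an Mdr1+ library than in its pair, in replicate 3. Bcl6 had a log2 fold change of -0.18 ± 0.45 (edgeR adjusted p = 0.918) and of -0.19 ± 0.14 with the block (edgeR adjusted p = 0.439; 95% interval -0.52 to 0.14). With group as the only term its value was 0.19 without Mdr1+ replicate 2 and 0.13 without Mdr1- replicate 1. With the block and without replicate 3, Bcl6 was called, at -0.37 (edgeR adjusted p = 0.0382).

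Pou2af1, which encodes a coactivator of POU-domain factors that is best known from B cells, was low in both fractions. It was at 5.15, 3.32 and 4.72 CPM in the Mdr1+ libraries, against 16.6, 9.42 and 12.4 CPM in the Mdr1- libraries. The fractions did not overlap, the ratios within numbers were 0.310, 0.352 and 0.380, and the value in Mdr1+ replicate 3 rests on 10 counts. Pou2af1 had a log2 fold change of -1.58 ± 0.37, with an edgeR adjusted p of 0.0776 with group as the only term and of 0.0116 with the block (-1.54). Its call with the block was lost without replicate 1 or replicate 2 (edgeR adjusted p = 0.151 and 0.0685).

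Tox2, an HMG-box factor that acts with Bcl6 in follicular helper cells, was at 4.82, 8.09 and 13.7 CPM in the Mdr1+ libraries, against 15.2, 23.8 and 16.3 CPM in the Mdr1- libraries. The fractions did not overlap, but replicate 3 showed little difference: the ratios within numbers were 0.317, 0.340 and 0.839. With the block Tox2 fell by 1.21 ± 0.31 on the log2 scale (edgeR adjusted p = 0.038, against 0.276 without the block). The value was -1.64 without replicate 3 and -1.04 and -0.96 without replicates 1 and 2, where the call was lost (edgeR adjusted p = 0.140 and 0.286).

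Ascl2, a helix-loop-helix factor that initiates the program and raises Cxcr5 in mouse T cells, had 0 counts in all 6 libraries, which allows a level of up to between 0.140 and 1.41 CPM per library from counting error alone. Taken gene by gene, the exact permutation test of mean CPM (two-sided) gave p = 0.1 for Btla, Cd200, Pou2af1 and Tox2, the smallest that 3 against 3 libraries allow. The same exact permutation test gave p = 0.3 for Il21 and Pdcd1, 0.5 for Sh2d1a and 0.7 for Bcl6 and Icos.

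**Figure D2:**
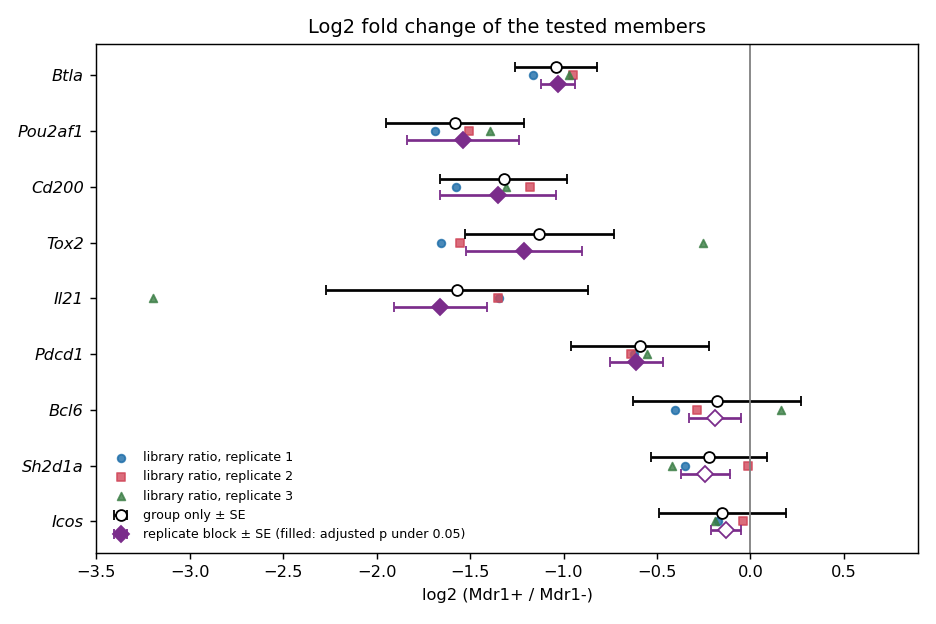
For each tested gene (y axis), the log2 fold change with Mdr1+ over Mdr1- (x axis); circles are the edgeR fit with group only and diamonds the fit with the replicate block, each with its SE, and small coloured symbols are the ratios of the 3 pairs of libraries. The block leaves the values nearly in place and narrows the errors, for Btla to 0.09.

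Several members also differed between replicate numbers. A test of the replicate number term in the block fit, chosen after the values were seen, passed for 6 of 9 members, against 17.0% of all tested genes: Icos (edgeR adjusted p = 0.000495), Bcl6 (0.00195), Il21 (0.00365), Pdcd1 (0.00481), Sh2d1a (0.0134) and Btla (0.0156). For Bcl6 the highest library was 2.91 times the lowest within Mdr1+ cells and 2.78 times within Mdr1- cells, and for Icos these ratios were 2.07 and 2.28. Cd200, Pou2af1 and Tox2 did not pass that test (edgeR adjusted p = 0.614, 0.293 and 0.338), and their counts were the lowest of the tested members. The labels do not say what a replicate number stands for. Depth followed the number in both fractions. Replicates 1, 2 and 3 had 6358978, 20771456 and 2220691 counts in Mdr1+ and 9278109, 10530324 and 5862443 in Mdr1- libraries. The replicate number, as a term or as a block, therefore cannot be told apart from depth.

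The members did not follow one common profile over the 6 libraries. Pearson correlations of log2 CPM between members ran from -0.25 for Bcl6 and Sh2d1a to 0.99 for Btla and Pou2af1. Bcl6 and Icos, both low in replicate 2, had a correlation of 0.93, and Pdcd1 and Sh2d1a, both low in replicate 3, of 0.92. Bcl6 had a correlation of 0.03 with Pdcd1 and 0.04 with Cd200. These are descriptions over 6 libraries that share fraction, replicate number and depth.

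Likeness was measured as Pearson's r over the 6 libraries, among 9732 genes whose log2 CPM averaged 2 or more. Those most like Btla were Pou2af1 (r = 0.993), Impa1 (0.988) and Il1r2 (0.983), and those most like Pou2af1 were Impa1 (0.996), Btla (0.993) and Il1r2 (0.989). Most like Bcl6 were G2e3 (0.996), Ipmk (0.992) and Plekhb2 (0.992), and most like Icos were Tram1, Gpcpd1 and Gnai3 (0.996 each). Most like Pdcd1 were Usp39 (0.998), Uqcrfs1 (0.984) and Mlf1 (0.978), most like Sh2d1a were Ubash3b (0.994), Zfp277 (0.987) and Sfmbt2 (0.985), and most like Cd200 were Vps29 (0.999), Actb and Uqcrc2 (0.981 each). Most like Il21 were Eprs (0.989), Mtch2 and P4hb (0.985 each), and most like Tox2 were Acot11 (0.994), Phf19 and Pif1 (0.990 each). With only 6 libraries such values are common: between 55 and 476 genes had a correlation above 0.9 with a given member.

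Per kilobase of exon, levels differed widely between members. Icos was far above the rest, at 411.1 ± 143.5 in Mdr1+ and 456.4 ± 175.6 CPM per kilobase in Mdr1- cells (SD, n = 3 each). In Mdr1+ cells Sh2d1a (36.4 ± 12.5 CPM per kilobase) and Btla (31.4 ± 5.3) came next and did not differ beyond their spread. Pdcd1 (16.9 ± 6.75 CPM per kilobase), Bcl6 (16.0 ± 7.53) and Il21 (9.67 ± 9.96) followed and overlapped, and Tox2 (2.79 ± 1.41), Cd200 (1.93 ± 0.304) and Pou2af1 (1.72 ± 0.376) were lowest. In Mdr1- cells Btla stood at 64.6 ± 16.3, Sh2d1a at 43.0 ± 13.0 and Il21 at 29.6 ± 20.9 CPM per kilobase. The lengths are unions of exons in an annotation of GRCm38, a later build than the one the counts were made on.

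**Figure D3:**
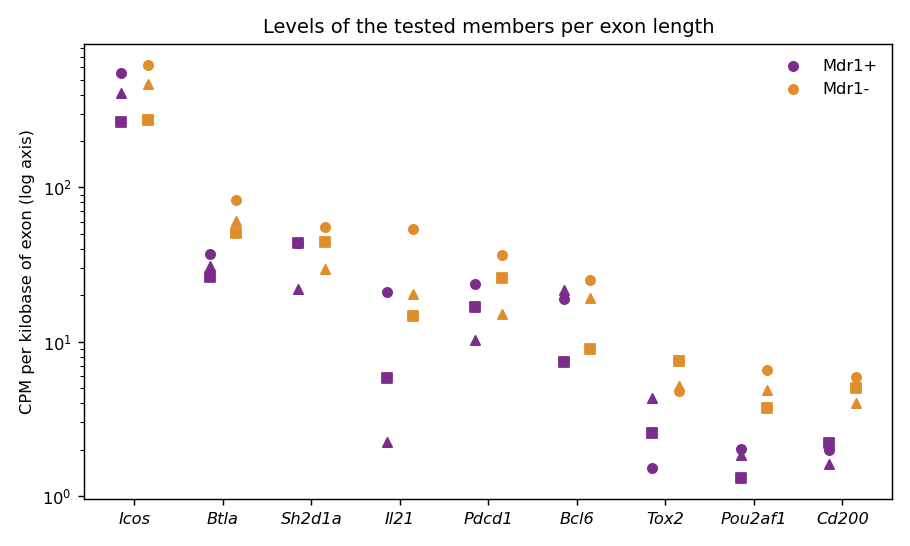
TMM-scaled CPM per kilobase of exon (y axis, log scale) of the 9 tested genes (x axis, ordered by their mean in Mdr1- cells), with 1 symbol per library, circles, squares and triangles for replicates 1, 2 and 3. Icos lies above all other members in every library, and Tox2, Pou2af1 and Cd200 lie lowest in Mdr1- cells.

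Genes of the wider follicular helper program showed no common direction. Of 18 further genes, 17 were tested; with group as the only term 0 passed by edgeR or DESeq2 and 2 had an unadjusted p under 0.05. With the block, where 5.81% of all tested genes were called higher and 6.57% lower, Stat3 rose and Batf, Il6st and Cd40lg fell, and the list's median was -0.11 against 0.03 over all genes. Batf, an AP-1 factor needed for follicular helper and Th17 cells, was at 113.1, 139.3 and 117.0 CPM in the Mdr1+ libraries, against 168.0, 197.5 and 152.8 CPM in the Mdr1- libraries. The fractions did not overlap for Batf (log2 fold change with the block -0.49 ± 0.09, edgeR adjusted p = 0.00976). When the block was fitted without a replicate number, Stat3 and Cd40lg were called each time, Batf was not called without replicate 2, and Il6st was not called without replicate 1 or 2.

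Cd40lg, the gene of the ligand through which helper T cells license B cells, was at 133.6, 87.3 and 50.0 CPM in the Mdr1+ libraries, against 236.3, 107.1 and 106.6 CPM in the Mdr1- libraries (with the block -0.69 ± 0.14, edgeR adjusted p = 0.0156). Il6st, the shared signalling chain of interleukin 6 family receptors, fell by 0.43 with the block (edgeR adjusted p = 0.0401). Stat3, the factor activated by interleukins 6 and 21, rose by 0.38 with the block (edgeR adjusted p = 0.0194). Cxcr5, the chemokine receptor that guides T cells into B cell follicles and the defining surface marker of these cells, was at 20.4, 41.6 and 6.13 CPM in the Mdr1+ libraries, against 35.5, 45.2 and 14.6 CPM in the Mdr1- libraries. Cxcr5 was lower in Mdr1+ in each pair and did not pass (with the block -0.57 ± 0.22, edgeR adjusted p = 0.128). Irf4, the highest of the list by mean CPM, had a log2 fold change of -0.62 ± 0.41 and did not pass in either edgeR fit (adjusted p = 0.636 and 0.159).

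Genes that oppose the program or are repressed by Bcl6 lay slightly on the other side. All 13 were tested and had a log2 fold change above 0, where 45.8% of all tested genes had a value below 0. Their median was 0.24 against 0.04 over all genes, and the list was chosen with earlier results of these data known. With group as the only term 0 passed by edgeR, 1 had an unadjusted p under 0.05 and DESeq2 called Foxp1. With the block 3 rose, where 5.81% of all genes were called higher. Foxp1, a restraint on follicular helper differentiation, was at 143.1, 145.9 and 142.9 CPM in the Mdr1+ libraries, against 106.9, 94.2 and 90.0 CPM in the Mdr1- libraries, with no overlap (with the block 0.57 ± 0.10, edgeR adjusted p = 0.00725). Il2ra, a chain of the receptor for interleukin 2, which opposes Bcl6, had 0.61 ± 0.16 (edgeR adjusted p = 0.0428 with the block). Gpr183, an oxysterol receptor gene that Bcl6 represses, had 0.39 ± 0.11 (edgeR adjusted p = 0.0457 with the block). Prdm1, which encodes Blimp-1, the antagonist of Bcl6, was at 99.2, 80.7 and 89.6 CPM in the Mdr1+ libraries, against 97.4, 46.4 and 108.7 CPM in the Mdr1- libraries, and did not pass (edgeR adjusted p = 0.937 and 0.523). Il2rb, the highest of these genes by mean CPM, did not pass either (edgeR adjusted p = 0.385 with the block). With the block Foxp1 was called without each number, Gpr183 was not called without replicate 2, and Il2ra was not called without replicate 1 or 2.

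Receptors, ligands and signalling partners of the members gave 0 calls of 22 by edgeR (2.22% of all tested genes) or DESeq2 with group as the only term, with 1 at an unadjusted p under 0.05. With the block 3 of 22 rose, where 5.81% of all tested genes were called higher, with a list median of 0.11 against 0.03 over all genes. Il21r, the receptor gene for interleukin 21, was at 528.4, 399.3 and 633.8 CPM in the Mdr1+ libraries, against 347.8, 307.5 and 386.3 CPM in the Mdr1- libraries. The fractions did not overlap for Il21r, and with the block it rose by 0.56 ± 0.09 (edgeR adjusted p = 0.00491). Cd274, the gene of the PD-1 ligand PD-L1, rose by 0.45 (edgeR adjusted p = 0.0407 with the block) and Pik3r1, a regulatory subunit of the kinase that acts downstream of Icos, by 0.42 (edgeR adjusted p = 0.0115 with the block). Il21r was called in the block fit without each number, Cd274 was not called without replicate 2 and Pik3r1 not without replicate 1.

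The receptors for Btla and Cd200 had values near 0. Tnfrsf14, which encodes HVEM, had a log2 fold change of -0.01 ± 0.19 and Cd200r1, the Cd200 receptor gene, of 0.00 ± 0.26 (edgeR adjusted p = 0.986 and 0.998). Pik3cd, the catalytic subunit downstream of Icos and the highest of these genes by mean CPM, was at 906.5, 1098.0 and 1033.7 CPM in the Mdr1+ libraries, against 847.0, 845.2 and 822.0 CPM in the Mdr1- libraries, and did not pass (edgeR adjusted p = 0.0722 with the block). Pou2f1 and Pou2f2, the POU factors that Pou2af1 joins, had log2 fold changes of 0.09 ± 0.20 and 0.33 ± 0.30 and did not pass.

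**Figure D4:**
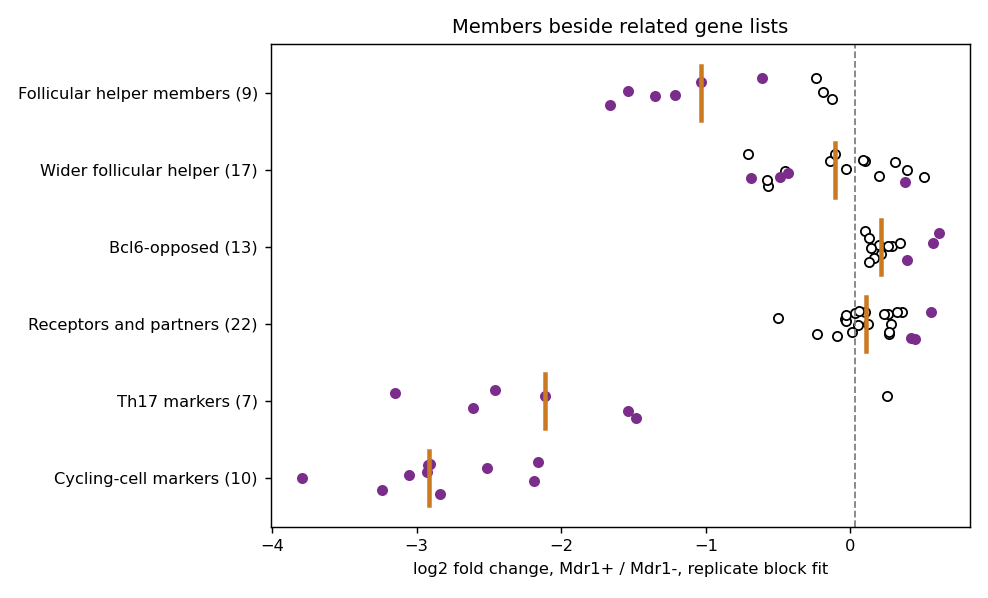
Log2 fold change of Mdr1+ over Mdr1- in the fit with the replicate block (x axis) for each tested gene of 6 lists (y axis, number tested in parentheses); filled symbols have an adjusted p under 0.05, orange bars are list medians, and the dashed line is the median of all tested genes. The median of the follicular helper members is -1.03, that of the wider follicular helper genes -0.11 and that of the Th17 markers -2.11.

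Markers of cycling cells, Th17 cells and other cell types were also compared. The 10 markers of cycling cells summed to 388 to 525.5 CPM in Mdr1+ and 1903.2 to 3004.1 CPM in Mdr1- libraries, and all 10 fell in both fits. Of all tested genes, 1.95% were called lower with group as the only term and 6.57% with the block. Of 7 Th17 markers, 2 fell with group as the only term and 6 fell with the block. Rora did not pass in either fit and was higher in Mdr1+ in each pair. The 7 summed to 207.8 to 370.7 CPM in Mdr1+ and 272.4 to 512.6 CPM in Mdr1- libraries, and the 6 other than Rora, a split made after the values were seen, to 36.8 to 66.0 CPM in Mdr1+ and 136.4 to 254.0 CPM in Mdr1- libraries. The 8 dendritic cell markers summed to 24.3 to 48.1 CPM in Mdr1+ and 62.4 to 84.2 CPM in Mdr1- libraries, with Cd74 and H2-Aa lower with the block. Cd74 was the largest part of the sum in each library. H2-Ab1 and Zbtb46 did not pass in either fit, and H2-Eb1, Flt3, Itgax and Xcr1 were too low to test.

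The 7 myeloid markers summed to 84.6 CPM in Mdr1- replicate 3 and to between 0.701 and 6.6 CPM in the other 5 libraries. Only Lyz2 of them was tested, and it fell with the block (-2.52 ± 0.69, edgeR adjusted p = 0.0461, against 0.316 without it). With the block 6.57% of all tested genes were called lower. Lyz2 had 2, 3 and 3 counts in the Mdr1+ libraries and 15, 5 and 86 in the Mdr1- libraries. The 10 B cell markers summed to 11.6 to 22.8 CPM in Mdr1+ and 7.37 to 11.3 CPM in Mdr1- libraries. The B cell genes Ms4a1, Fcer2a, Cr2 and Ebf1 had at most 1 count in any library, and the largest part of the sum was Cd22, except in Mdr1+ replicate 3, where it was Cd79a with 24 counts. Cd22 rose with the block (edgeR adjusted p = 0.0371), and Cd79a and Cd79b, at log2 fold changes of 1.55 and -0.50, did not pass. The part of all these cells in the differences of the members was not tested.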

How the data were processed

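The deposited table holds raw read counts per gene symbol, and the submitters' processing notes name TopHat, HTSeq, DESeq2 and mm9 without versions. For the strand setting and the annotation the sources used here give nothing. Total RNA (500 ng) was made into libraries with a stranded kit, per the labels' protocols. The authors deposited the counts of replicate 3 in case-insensitive order of the gene names, while the names stand in case-sensitive order. They were re-assigned, which raised their Spearman correlations with replicates 1 and 2 to 0.926 to 0.962, against 0.424 to 0.460 as deposited. HTSeq's 5 classes of unassigned reads were left out; multiply aligned reads were 67.0% to 73.2% of all entries in the 4 libraries that list them. Between libraries of one group, chi-square per degree of freedom was 14.5 to 53.7, above sampling noise.

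Tests used edgeR 4.0.16 in R 4.3.3: TMM scaling, filterByExpr by group (10897 genes), robust quasi-likelihood F test of Mdr1+ over Mdr1-, Benjamini-Hochberg adjustment over all tested genes and a threshold of 0.05. DESeq2 1.42.0, other scaling, no filter, left-out libraries and a replicate block were alternatives. Deviations of log2 CPM (prior count 2) from group means had correlations of 0.41, 0.57 and 0.21 between libraries of the same number, so libraries of the same number were treated as pairs; the pairing comes from the data and is not stated in the labels. Scripts were tested on simulated data. Count floors cover counting error only, while SEs and 95% intervals of fold changes come from the edgeR fits and include the spread between libraries. All members are described, and from the other lists the genes called in either fit and the highest by mean CPM are named; Cxcr5, Prdm1, Tnfrsf14, Cd200r1, Pou2f1, Pou2f2, Atg3 and Slc35a5 were chosen after their values were seen. The members and lists were chosen with earlier results of these data known. Promoters of 8 of 10 members were matched in RefSeq (GRCm38.p6).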

Additional observations from a re-analysis of the deposited data

How the results depend on the processing

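With group as the only term 242 of 10897 genes were called. DESeq2 called 480 of the 12279 genes it gave an adjusted p. When a library or a replicate number was left out, 0 to 210 genes were called. The lowest number was without replicate 3 and, among single libraries, 76 without Mdr1- replicate 3. No member of the other lists was called in those left-out fits, and 0 to 1 of the 9 members, Btla, was. DESeq2 called 3 members and 1 of the genes opposed to Bcl6 (Foxp1). Without a filter edgeR called 1 member (Btla), where it called 339 of 16306 genes (52 higher and 287 lower in Mdr1+). The replicate block called 1349 genes, 6 members, 4 wider follicular helper genes, 3 genes opposed to Bcl6 and 3 receptors or partners, and with it and without replicates 1, 2 and 3 it called 1130, 651 and 2478 genes, 2, 2 and 7 members, 3, 3 and 7 wider genes, 2, 1 and 5 opposed genes, and 3, 2 and 6 receptors or partners. With replicate 3 on the rows as deposited, 0 genes were called. Apart from that order, directions of the members held in all alternatives except in some fits without a single library: Bcl6 (-0.51 to 0.19), Icos (-0.47 to 0.12) and Sh2d1a (-0.43 to 0.01). Of these, Bcl6 stood at 0.19 and Icos at 0.08 without Mdr1+ replicate 2, Bcl6 at 0.13 and Icos at 0.12 without Mdr1- replicate 1, and Sh2d1a at 0.01 without Mdr1+ replicate 3. The causes were not tested. Depth was least in Mdr1+ replicate 3, where Cd200, Pou2af1 and Il21 had 8, 10 and 15 counts.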
